A study of Mus musculus with 8 samples.

Results

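The genes described here are 35 enzymes of nucleotide, serine and folate metabolism, taken by symbol from 34741 gene names on a mouse expression array. All 35 were measured and passed the filter on dim probes, among 20677 genes in all that did. They comprise 3 enzymes of serine synthesis, 8 of folate one-carbon metabolism, 2 that make phosphoribosyl pyrophosphate, 6 of de novo purine synthesis, 4 that turn inosine monophosphate (IMP) into AMP and GMP, 4 of de novo pyrimidine synthesis and 8 that supply deoxynucleotides. RNA came from 1676 cells, a line of mouse pre-B cells with the genotype SLP-65-/- LAT-/-, which both control and miR-125b cells share. The cells had been infected with a retroviral control vector or with a vector encoding hsa-miR-125b, selected in puromycin, and then kept in an excess of interleukin-7 (IL-7) or for 24 h without it, which the labels describe as inducing differentiation. The 4 groups were thus control with IL-7, miR-125b with IL-7, control without IL-7 and miR-125b without IL-7, with 2 arrays each (n = 2). All of them come from 1 cell line, and the labels do not say whether the replicates were separate cultures, so p-values measure only the spread between arrays, which may be technical.

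Cells that divide must expand their nucleotide pools before each division. Serine, made from a glycolytic intermediate or taken up, gives a carbon unit to tetrahydrofolate, and the folate cycle carries that unit into the purine ring and into thymidylate. De novo synthesis builds purines and pyrimidines from amino acids and phosphoribosyl pyrophosphate, ribonucleotide reductase then converts ribonucleotides to deoxyribonucleotides, and salvage kinases recover nucleosides. In early B cells IL-7 drives proliferation, and many of these enzymes are known targets of the transcription factor MYC. The microRNA miR-125b represses mRNAs that pair with its seed.

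Levels are given as log2 of the Agilent processed signal minus the log2 75th percentile of the same array, so that 0 is the 75th percentile, and they compare arrays for 1 probe but not different probes. Between 47.7% and 54.8% of 55681 probes stood well above background per array, and 0 spots were saturated. The 75th percentile ranged from 325 to 379 with IL-7 and from 606 to 722.5 without. Over the 35 enzymes, the log2 difference between replicates had an SD of 0.14 to 0.33. Its median, replicate 2 minus replicate 1, was -0.19 in control and 0.14 in miR-125b cells with IL-7. Without IL-7 it was 0.10 in control and 0.16 in miR-125b cells, so the enzymes also shifted together between replicates. The IL-7 arrays shared 1 slide and scan, and those without IL-7 another, so slide and withdrawal cannot be told apart. Control arrays lay in columns 1 and 2 of a slide and miR-125b arrays in columns 3 and 4, so the vector cannot be told apart from slide column. All 12 pre-B markers, such as Cd79a and Vpreb1, were well above background on each array. Probes of Blnk, which encodes SLP-65, and of Lat were also above background on all 8 arrays, and where they lie relative to the disrupted parts is not given in the sources used here. The mature microRNA was not analysed here. In such bulk samples fewer cells of a type and less RNA per cell cannot be told apart.

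**Figure D1:**
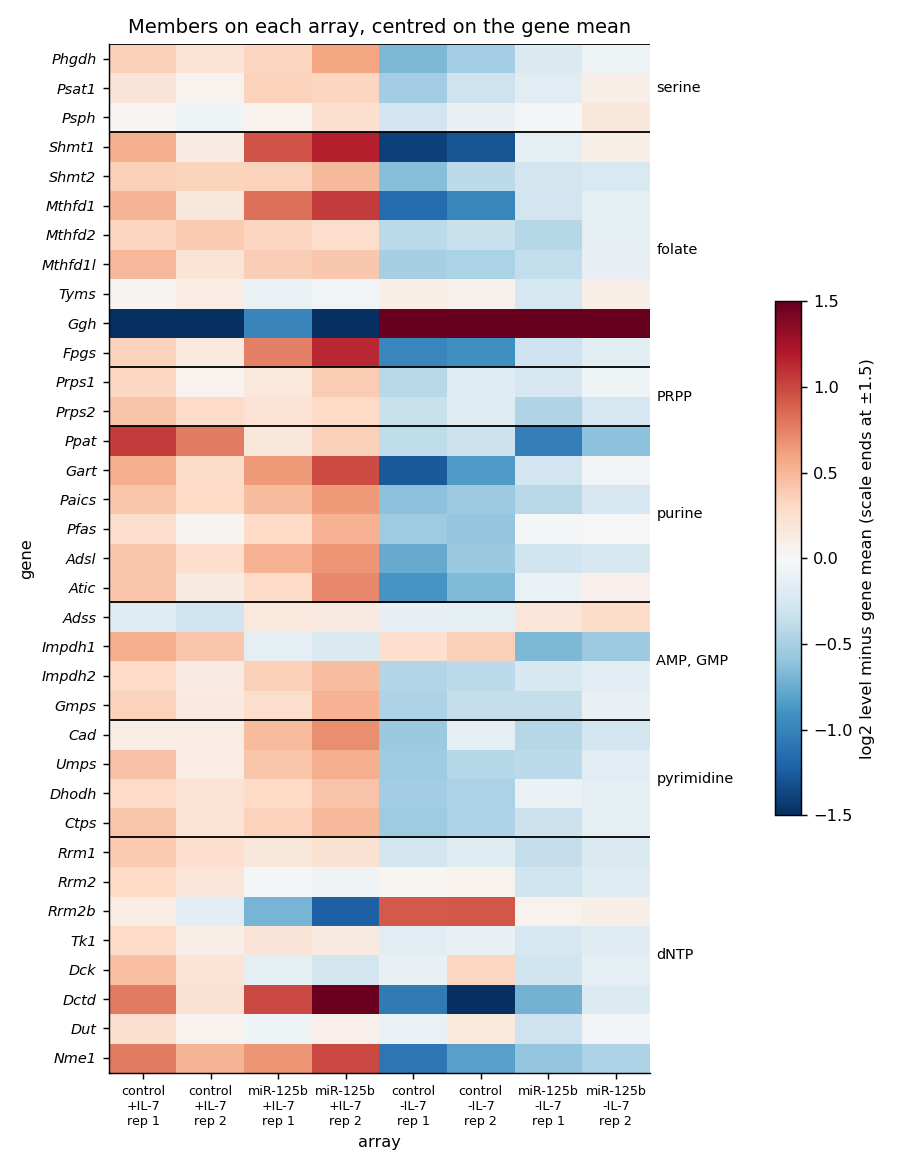
Levels of the 35 enzymes (rows, by role) on each of the 8 arrays (columns), as log2 level minus the mean of the gene over the arrays, with colours ending at ±1.5. Most rows are higher on the 4 arrays with IL-7 than on the 4 without, while Ggh and Rrm2b run the other way, and Impdh1 and Ppat are lower in miR-125b cells.

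The first comparison asked which of these enzymes differed between miR-125b and control cells. Averaged over both IL-7 conditions, 8 were higher in miR-125b cells, among them the folate enzymes Shmt1 and Mthfd1, the folate-retaining enzyme Fpgs and the purine enzyme Gart. Lower were 4, among them Impdh1, on the branch to GMP, and the small ribonucleotide reductase subunit Rrm2b, and 23 were not called (adjusted p under 0.05, limma). Of all genes tested 15.8% were called in that comparison, 7.27% higher and 8.57% lower. The median change over the 35 enzymes was 0.21 on the log2 scale, beside -0.03 over all genes. Between the 2 replicates of a group the median over the 35 differed by -0.19 to 0.16, which is near that size. With IL-7 alone 0 were higher and 1 was lower, with 2.6% of all genes called (1.14% higher and 1.46% lower). Without IL-7, 4 were higher and 1 was lower, with 6.42% of all genes called (2.95% higher and 3.48% lower). In both IL-7 conditions, both miR-125b arrays lay above both control arrays for 13 of the 35 and below them for 5, where 14.3% and 18% of all genes did so, with overlap in at least 1 condition for the other 17.

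Leaving out 1 array at a time lowered the number called in the average from 12 to between 2 and 10. Without control replicate 1 (no IL-7) only Shmt1 and Impdh1 were called. The number was 4 and 5 without miR-125b replicates 2 and 1 (no IL-7), 7 without control replicate 2 (no IL-7), and 6 without either replicate 2 of the arrays with IL-7. In the comparison without IL-7 it fell from 5 to 0 when any of the 4 arrays without IL-7 was left out and to 3 when either control array with IL-7 was left out. With IL-7 alone it fell from 1 to 0 when any of the 8 arrays was left out. Scaling to the array median in place of the 75th percentile moved the median of all genes in the average from -0.03 to 0.12, and the calls over all genes from 1504 higher and 1771 lower to 1876 higher and 556 lower. The calls among the 35 were then 10 higher and 2 lower, with a median of 0.35. That scaling gave 135 higher and 85 lower genes with IL-7 (235 and 302 in the main fit), and 647 and 185 without IL-7 (609 and 719).

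**Figure D2:**
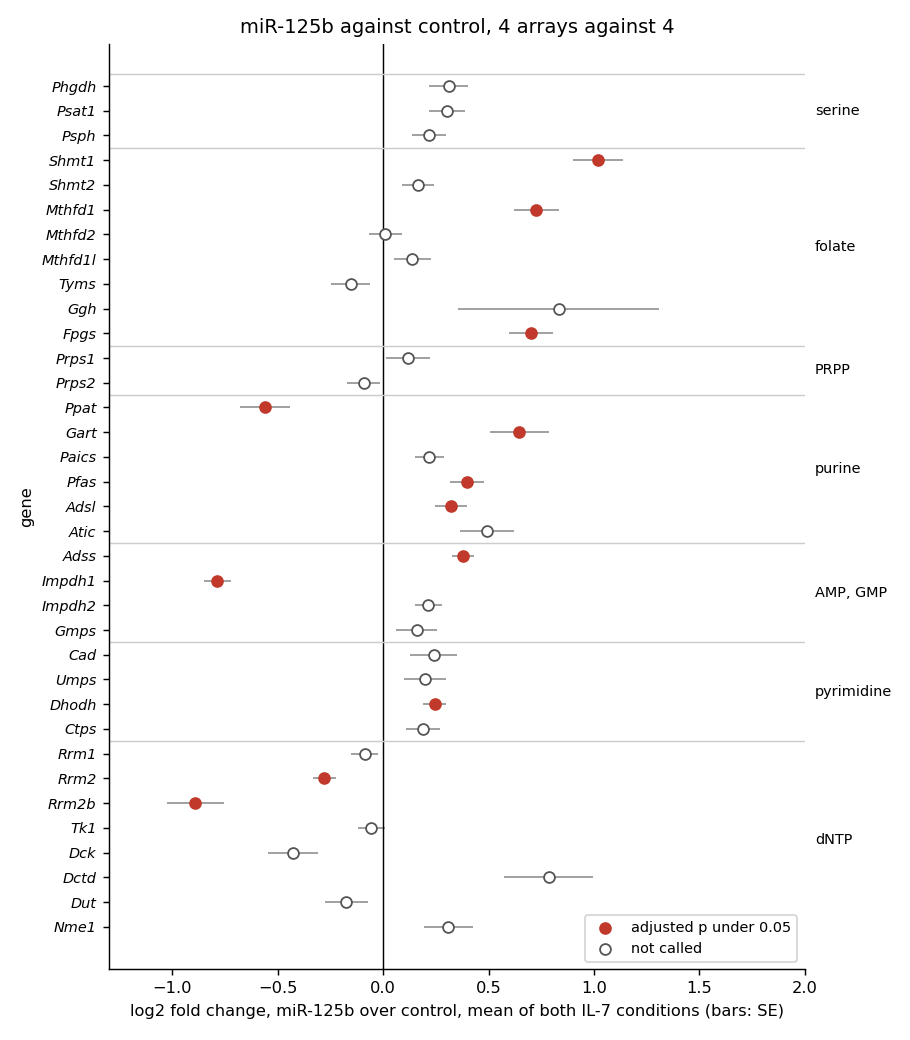
Log2 fold change of each enzyme, miR-125b over control cells, averaged over both IL-7 conditions (points) with its SE (bars), grouped by role. Shmt1 stands highest at 1.02 and Rrm2b lowest at -0.89; 8 filled points lie to the right of 0 and 4 to the left.

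The second comparison set 24 h without IL-7 against growth in IL-7. In control cells 25 of the 35 enzymes were lower without IL-7 and 2 were higher, where 54.3% of all genes were called, 34.1% lower and 20.2% higher. In miR-125b cells the counts were again 25 and 2, beside 32.1% and 20.5% of all genes (52.5% called). The same 23 enzymes were lower in both cell types, and Ggh and Rrm2b were higher in both. Atic and Prps1 were called lower in control cells alone, and Cad and Impdh1 in miR-125b cells alone. Tyms, Adss, Rrm2, Dck, Dut and Psph were called in neither. The median change over the 35 was -0.71 in control and -0.60 in miR-125b cells, beside -0.13 and -0.11 over all genes.

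These medians depended on the scaling. With the array median as the scale the median of all genes moved to -0.46 in control and -0.36 in miR-125b cells, that of the enzymes to -1.04 and -0.85, and 29 and 28 enzymes were lower. With quantile normalization the medians of all genes were -0.04 and -0.03, those of the enzymes -0.56 and -0.36, and 22 and 20 enzymes were lower. Called higher were then 4 enzymes in each cell type, beside 2 in the main fit, and likewise 4 with the authors' deposited values. In the same comparisons the called genes of the whole array were 37.2% and 39% higher in the main fit, 17% and 21.9% with the array median, and 46% and 48% with quantile normalization. Of 19 measured proliferation genes 13 were lower in each cell type, where 34.1% (control) and 32.1% (miR-125b) of all genes were. Their summed level was 2006 to 2172 (in units of the 75th percentile) with IL-7 and 1444 to 1556 after withdrawal. The part of these proliferation genes in the falls of the enzymes was not tested. The summed level of the 12 pre-B markers was 1561 to 1637 with IL-7 and 1259 to 1291 without. Such a sum weighs bright probes most. On withdrawal 4 of the 12 were called higher and 4 lower in each cell type. Of all genes 20.2% were higher and 34.1% lower in control cells, and 20.5% and 32.1% in miR-125b cells.

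**Figure D3:**
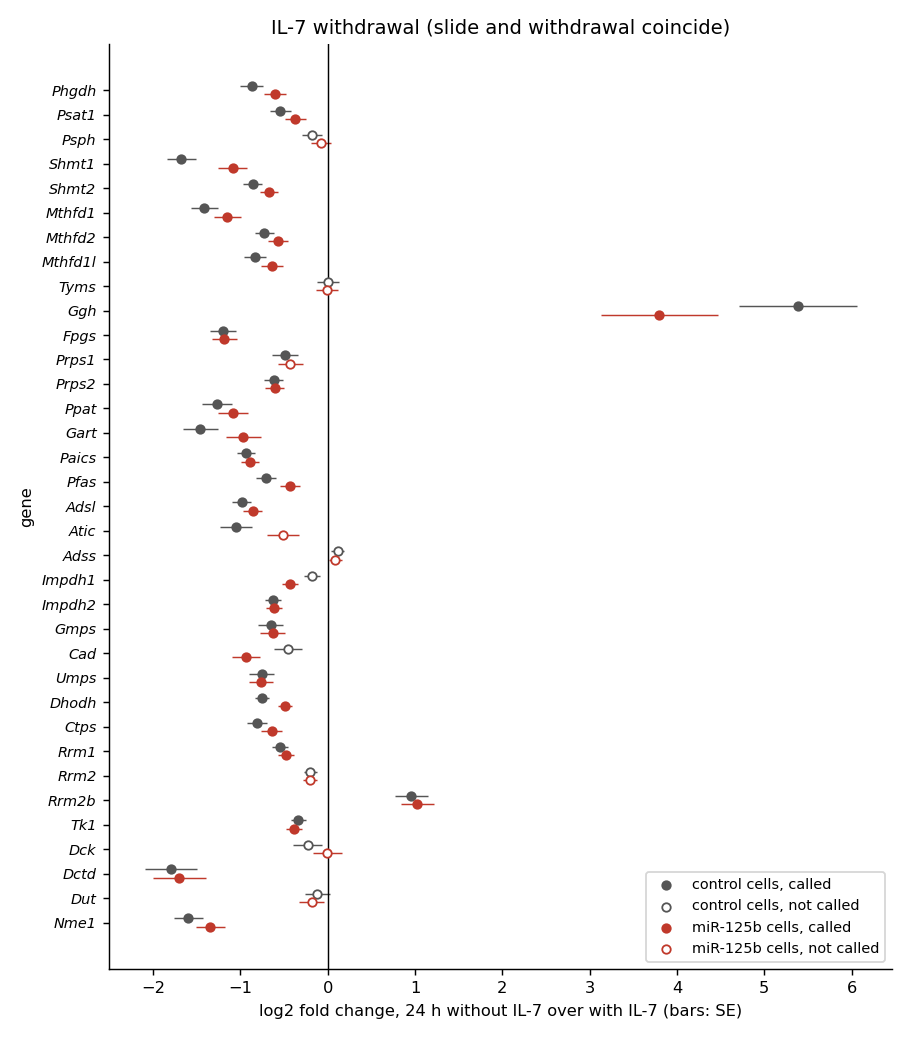
Log2 fold change of each enzyme on withdrawal of IL-7 in control cells (grey) and miR-125b cells (red), with SE as bars and filled points for calls. Most points lie to the left of 0, Ggh lies far to the right at 5.38 and 3.80, and Tyms lies at 0.01 and -0.01.

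The third comparison asked whether withdrawal changed an enzyme by another amount in miR-125b cells. By limma, 0 of the 35 were called, as were 0 of all 20677 genes (0%), and 0 of the 35 had an unadjusted p under 0.05, where 1208 genes (5.84%) did. The largest positive difference was that of Shmt1, at 0.59 (SE 0.24, adjusted p = 0.853), and the most negative fitted value was that of Ggh, at -1.59 (SE 0.95, adjusted p = 0.955), which uses 1 control array with IL-7 where the probe was not well above background. The median difference over the 35 was 0.09, beside 0.02 over all genes. With 4 residual degrees of freedom, differences of this size were not resolved, and these values do not show that the responses were alike.

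The first 2 enzymes of serine synthesis were lower without IL-7 on the representing probes. Among all genes 34.1% were lower in control and 32.1% in miR-125b cells. Phgdh oxidises 3-phosphoglycerate, which opens the pathway. The level of Phgdh was 6.18 and 6.03 in control cells with IL-7, 6.14 and 6.42 in miR-125b cells with IL-7, 5.15 and 5.32 in control cells without IL-7, and 5.60 and 5.75 in miR-125b cells without IL-7. Its fall was 0.87 (SE 0.13, adjusted p = 0.00346) in control and 0.60 (SE 0.13, adjusted p = 0.0119) in miR-125b cells, and the groups with and without IL-7 did not overlap. The second enzyme, the transaminase Psat1, fell by 0.54 (SE 0.12, adjusted p = 0.0124) and 0.37 (SE 0.12, adjusted p = 0.0439). With IL-7, Psat1 was at 5.28 and 5.13 in control and 5.43 and 5.41 in miR-125b cells, and without IL-7 at 4.56 and 4.77 in control and 4.93 and 5.17 in miR-125b cells. The lower arrays without IL-7 were those of control cells, and the highest array without IL-7 lay just above the lowest with IL-7. Psat1 kept its call in 14 of 18 alternative settings in control cells but in only 6 of 18 in miR-125b cells, and Phgdh in 18 of 18 and 14 of 18. The last enzyme, the phosphatase Psph, changed by -0.18 (SE 0.11, adjusted p = 0.219) and -0.07 (SE 0.11, adjusted p = 0.616), and was not called. A second, dimmer Psph probe fell by 0.51 in control cells and was called there (adjusted p = 0.0221, limma fit of every probe), and changed by -0.29 (adjusted p = 0.123) in miR-125b cells. Between miR-125b and control cells, all 3 had positive changes of 0.22 to 0.31 in the average. Of these 3, 0 were called, beside 15.8% of all genes.

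Averaged over both conditions, the largest increase with miR-125b on the representing probes was that of Shmt1, in the cytosolic arm of folate metabolism. Shmt1, cytosolic serine hydroxymethyltransferase, transfers the carbon unit of serine to tetrahydrofolate (probe at chr11:60603099-60603158, minus strand, mm9). In control cells Shmt1 read 1.26 and 0.85 with IL-7 and -0.68 and -0.56 without, and in miR-125b cells 1.68 and 1.89 with IL-7 and 0.58 and 0.81 without. Both miR-125b arrays exceeded both control arrays in each IL-7 condition, and the lowest arrays were those of control cells without IL-7. The average change was 1.02 (SE 0.12, adjusted p = 0.00755), a 2.03-fold difference, and it kept its call in 17 of 17 alternative settings. Without IL-7 the change was 1.31 (SE 0.17, adjusted p = 0.0177) and with IL-7, where it was not called, 0.73 (SE 0.17, adjusted p = 0.0872). Its other probe had an average change of 0.92. Withdrawal lowered Shmt1 by 1.67 (SE 0.17, adjusted p = 0.0016) in control and 1.09 (SE 0.17, adjusted p = 0.00442) in miR-125b cells.

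Mthfd1 is the cytosolic enzyme that interconverts one-carbon forms of folate for purine and thymidylate synthesis. Mthfd1 levels were 4.33 and 3.98 (control) and 4.64 and 4.86 (miR-125b) with IL-7, against 2.66 and 2.83 (control) and 3.52 and 3.68 (miR-125b) without it. Its groups were ordered like those of Shmt1 and did not overlap. The average change with miR-125b was 0.73 (SE 0.11, adjusted p = 0.0128), kept in 15 of 17 settings, and withdrawal lowered it by 1.41 (SE 0.15, adjusted p = 0.00169) and 1.15 (SE 0.15, adjusted p = 0.003) in control and miR-125b cells. Fpgs adds glutamates to folates, which holds them inside the cell. The level of Fpgs was 2.68 and 2.48 in control cells with IL-7, 3.08 and 3.46 in miR-125b cells with IL-7, 1.35 and 1.40 in control cells without IL-7, and 2.01 and 2.16 in miR-125b cells without IL-7. Here too each miR-125b array lay above each control array of its condition. The average change was 0.70 (SE 0.10, adjusted p = 0.0127), kept in 15 of 17 settings, and the falls on withdrawal were 1.20 (SE 0.15, adjusted p = 0.0021) and 1.18 (SE 0.15, adjusted p = 0.00265). The calls of Mthfd1 and Fpgs were both lost without control replicate 1 or miR-125b replicate 2 of the arrays without IL-7, with adjusted p of at most 0.0532 and 0.054.

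**Figure D4:**
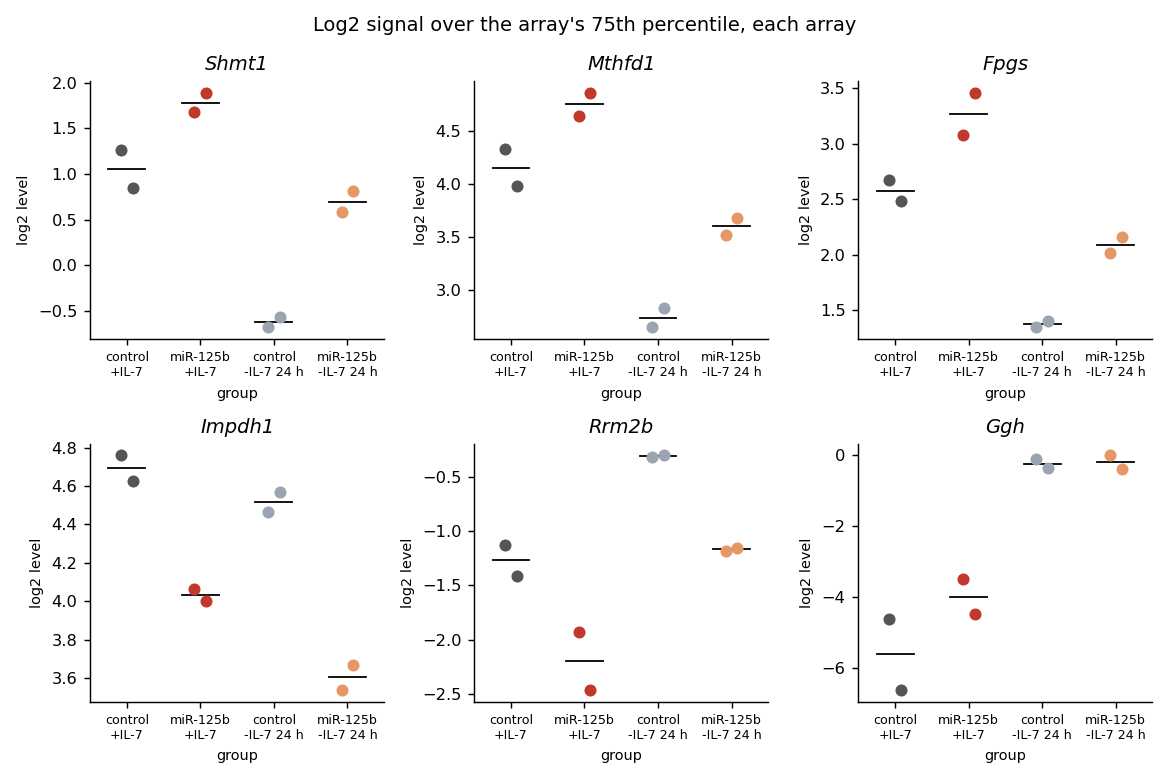
Level on each array (points) and group mean (lines) for Shmt1, Mthfd1, Fpgs, Impdh1, Rrm2b and Ggh, as log2 signal over the 75th percentile of the array, each panel on its own axis. Shmt1, Mthfd1 and Fpgs are higher and Impdh1 and Rrm2b lower in miR-125b cells in both IL-7 conditions, while Ggh separates the arrays by IL-7.

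The 3 enzymes of the mitochondrial arm fell on withdrawal in both cell types. Among all genes 34.1% were lower in control and 32.1% in miR-125b cells. With miR-125b 0 of the 3 were called in the average, beside 15.8% of all genes. Shmt2 is the mitochondrial counterpart of Shmt1. With IL-7, Shmt2 was at 5.18 and 5.15 in control and 5.17 and 5.31 in miR-125b cells, and without IL-7 at 4.18 and 4.43 in control and 4.54 and 4.59 in miR-125b cells. Arrays with IL-7 were higher throughout and the vectors overlapped with IL-7. It fell on withdrawal by 0.86 (SE 0.11, adjusted p = 0.00215) and 0.67 (SE 0.11, adjusted p = 0.00459), and its average change with miR-125b was 0.17 (SE 0.07, adjusted p = 0.186). Mthfd2, a mitochondrial dehydrogenase and cyclohydrolase, behaved in the same direction. In control cells Mthfd2 read 3.23 and 3.30 with IL-7 and 2.50 and 2.58 without, and in miR-125b cells 3.23 and 3.17 with IL-7 and 2.48 and 2.77 without. Its falls were 0.72 (SE 0.11, adjusted p = 0.00377) and 0.57 (SE 0.11, adjusted p = 0.00868), and its average change with miR-125b was 0.01 (SE 0.08, adjusted p = 0.945). Mthfd1l, which releases formate from mitochondria, fell by 0.83 (SE 0.13, adjusted p = 0.00362) and 0.63 (SE 0.13, adjusted p = 0.00936). A test of the difference between the cytosolic and mitochondrial enzymes was not made.

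Tyms and Ggh departed from the other folate enzymes. Tyms, thymidylate synthase, makes the DNA precursor dTMP. Tyms levels were 0.01 and 0.08 (control) and -0.13 and -0.08 (miR-125b) with IL-7, against 0.07 and 0.03 (control) and -0.30 and 0.07 (miR-125b) without it. The arrays with and without IL-7 overlapped, and the changes were 0.01 (SE 0.13, adjusted p = 0.967) in control and -0.01 (SE 0.13, adjusted p = 0.962) in miR-125b cells on withdrawal and -0.15 (SE 0.09, adjusted p = 0.292) for miR-125b. Ggh, a lysosomal hydrolase, removes the glutamates that Fpgs adds. The level of Ggh was -4.61 and -6.62 in control cells with IL-7, -3.50 and -4.48 in miR-125b cells with IL-7, -0.11 and -0.35 in control cells without IL-7, and 0.00 and -0.38 in miR-125b cells without IL-7. All 4 arrays without IL-7 lay far above those with IL-7, where replicates differed by up to 2.01. Of the 2 control arrays with IL-7, only 1 measured the probe above background, so the fitted fold in control cells is uncertain. The rise was 5.38 (SE 0.67, adjusted p = 0.00221) in control and 3.80 (SE 0.67, adjusted p = 0.00643) in miR-125b cells, a 13.9-fold difference in the latter, in which all arrays measured it. Across the alternative settings it ranged from 2.18 to 6.39 and from 2.08 to 4.29, and it was called in each of the 17 that measured it, while the filter on all 8 arrays left it out.

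Of the 6 enzymes of de novo purine synthesis, 6 were called lower on withdrawal in control cells and 5 in miR-125b cells. Among all genes 34.1% and 32.1% were. Prps1 and Prps2, which make the phosphoribosyl pyrophosphate that starts the pathway, changed by -0.49 (SE 0.15, adjusted p = 0.0332) and -0.61 (SE 0.11, adjusted p = 0.00579) in control cells and by -0.43 (SE 0.15, adjusted p = 0.0527) and -0.61 (SE 0.11, adjusted p = 0.00658) in miR-125b cells. Prps1 was thus not called in the latter, and in control cells it kept its call in 12 of 18 settings. With miR-125b their average changes were 0.12 and -0.09, not called.

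Gart catalyses 3 steps of the purine ring, among them a folate-dependent formylation. With IL-7, Gart was at 2.78 and 2.51 in control and 2.87 and 3.21 in miR-125b cells, and without IL-7 at 0.98 and 1.39 in control and 1.95 and 2.20 in miR-125b cells. In each IL-7 condition the miR-125b arrays were higher, narrowly so with IL-7. The average change was 0.65 (SE 0.14, adjusted p = 0.0343), kept in 10 of 17 settings, and withdrawal lowered Gart by 1.46 (SE 0.20, adjusted p = 0.00271) and 0.97 (SE 0.20, adjusted p = 0.0103). Pfas makes the amidine intermediate of the ring. In control cells Pfas read 1.45 and 1.22 with IL-7 and 0.65 and 0.61 without, and in miR-125b cells 1.48 and 1.71 with IL-7 and 1.15 and 1.18 without. The groups did not overlap, and the average change was 0.40 (SE 0.08, adjusted p = 0.0285), kept in 9 of 17 settings. Its falls on withdrawal were 0.71 (SE 0.11, adjusted p = 0.00446) and 0.43 (SE 0.11, adjusted p = 0.0245), the latter kept in 13 of 18 settings.

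Adsl, adenylosuccinate lyase, acts in ring assembly and again in the step to AMP. Adsl levels were 3.22 and 3.06 (control) and 3.33 and 3.47 (miR-125b) with IL-7, against 2.06 and 2.26 (control) and 2.51 and 2.58 (miR-125b) without it. Its groups did not overlap. The average change was 0.32 (SE 0.08, adjusted p = 0.0418), kept in 7 of 17 settings, and the falls were 0.98 (SE 0.11, adjusted p = 0.0017) and 0.86 (SE 0.11, adjusted p = 0.00267). Atic, the bifunctional enzyme that closes the ring, had an average change of 0.49 (SE 0.13, adjusted p = 0.0558), and on withdrawal -1.05 (SE 0.18, adjusted p = 0.00563) in control and -0.51 (SE 0.18, adjusted p = 0.0595) in miR-125b cells. A second Atic probe was called in all 3, at 0.54, -1.50 and -1.17, in a fit of every probe. Paics, which carries out 2 middle steps, fell by 0.93 (SE 0.10, adjusted p = 0.00167) and 0.89 (SE 0.10, adjusted p = 0.00225) and changed with miR-125b by 0.22 (SE 0.07, adjusted p = 0.0904).

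Ppat, the amidotransferase that commits phosphoribosyl pyrophosphate to purines, was the 1 of the 6 de novo purine enzymes called lower in miR-125b cells, on 1 of its 2 probes. The level of Ppat was 2.57 and 2.30 in control cells with IL-7, 1.69 and 1.88 in miR-125b cells with IL-7, 1.14 and 1.20 in control cells without IL-7, and 0.49 and 0.90 in miR-125b cells without IL-7. On the brighter probe (chr5:77342626-77342685, minus strand, mm9) the miR-125b arrays lay below the control arrays in both conditions, and the average change was -0.56 (SE 0.12, adjusted p = 0.0325). It kept its call in 6 of 17 settings, and with the mean of both probes it was -0.16. In the fit of every probe, the brighter probe changed by -0.56 (SE 0.12, adjusted p = 0.0356) and the other by 0.24 (SE 0.13, adjusted p = 0.267). The other probe read 1.53 and 1.21 (control) and 1.34 and 1.81 (miR-125b) with IL-7, and 0.07 and 0.18 (control) and 0.35 and 0.44 (miR-125b) without it. On withdrawal the probes fell together, by 1.27 and 1.25 in control cells and by 1.08 and 1.18 in miR-125b cells.

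Only the brighter of the 2 probes holds a match to the seed of miR-125b. The mature mouse microRNA and the stretch of the brighter Ppat probe around a match to its seed are shown, the first with the seed (bases 2 to 8) and the second with the 7 complementary bases in capitals.
mmu-miR-125b-5p: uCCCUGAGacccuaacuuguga
Ppat brighter probe: acacagaaaCTCAGGGaaggttctac
The microRNA sequence is that of RefSeq (GRCm38.p6), and the probe sequence that of the array files, reading as the transcript. The match begins at base 10 of the 60 bases of the probe. Of 55681 probes on the array 245 (0.44%) hold these 7 bases, and of the 55 probes of the 35 enzymes 1 does, this one. Among 138 probes with the match that passed the filter, 15.9% were called lower and 2.9% higher in the average. Of all 29811 probes 7.45% and 6.46% were. The median change of the 138 was -0.06, beside -0.03. The difference between these shares was not tested, and the match was chosen after values were seen. A match within a probe is a description of these letters, not evidence of binding, and whether it lies in a coding exon or an untranslated region was not analysed here.

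**Figure D5:**
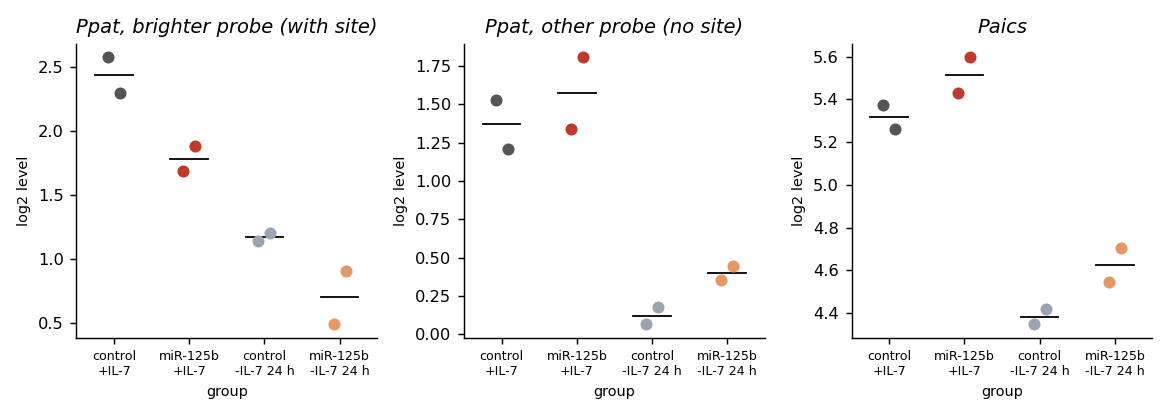
Level on each array (points) and group mean (lines) for both Ppat probes and for Paics, as log2 signal over the 75th percentile of the array. The brighter Ppat probe, which holds the seed match, is lower in miR-125b cells. Without IL-7 the other probe is higher in miR-125b than in control cells, and with IL-7 these cells overlap.

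At the branch from IMP, Impdh1 was lower and Adss higher in miR-125b cells. Impdh1 is 1 of 2 isozymes of IMP dehydrogenase, the first step to GMP (probe at chr6:29150442-29150501, minus strand, mm9). With IL-7, Impdh1 was at 4.76 and 4.63 in control and 4.06 and 4.00 in miR-125b cells, and without IL-7 at 4.46 and 4.57 in control and 3.54 and 3.67 in miR-125b cells. All 4 miR-125b arrays lay below all 4 control arrays. The average change was -0.79 (SE 0.06, adjusted p = 0.00345), kept in 17 of 17 settings, and it was called in each condition, at -0.66 (SE 0.09, adjusted p = 0.0343) with IL-7 and -0.91 (SE 0.09, adjusted p = 0.0116) without. With IL-7 the call was kept in 6 of 18 settings. Withdrawal lowered it in miR-125b cells by 0.43 (SE 0.09, adjusted p = 0.0111), while the change in control cells was -0.18 (SE 0.09, adjusted p = 0.145). The difference between these responses was -0.25 (SE 0.13, adjusted p = 0.923).

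Impdh2, the isozyme that dominates in dividing lymphocytes, ran with the rest of the pathway. In control cells Impdh2 read 6.62 and 6.45 with IL-7 and 5.89 and 5.94 without, and in miR-125b cells 6.69 and 6.80 with IL-7 and 6.09 and 6.17 without. Arrays with IL-7 were higher throughout, and its average change with miR-125b was 0.21 (SE 0.06, adjusted p = 0.0778). A second probe gave 0.26 and was called (adjusted p = 0.0492, limma fit of every probe). It fell on withdrawal by 0.63 (SE 0.09, adjusted p = 0.0032) and 0.61 (SE 0.09, adjusted p = 0.004). Adss, adenylosuccinate synthetase, takes IMP towards AMP. Adss levels were 2.68 and 2.58 (control) and 3.03 and 3.02 (miR-125b) with IL-7, against 2.75 and 2.74 (control) and 3.06 and 3.15 (miR-125b) without it. All 4 miR-125b arrays lay above all 4 control arrays, and Adss was not called on withdrawal in either cell type. The average change was 0.38 (SE 0.05, adjusted p = 0.0114), kept in 16 of 17 settings, and on withdrawal it was 0.12 (SE 0.07, adjusted p = 0.224) and 0.09 (SE 0.07, adjusted p = 0.368). Gmps, GMP synthetase, fell by 0.65 (SE 0.14, adjusted p = 0.0106) and 0.63 (SE 0.14, adjusted p = 0.0127) on its brightest probe. Its other 2 probes changed by 0.32 and -0.16 in control and by 0.73 and -0.27 in miR-125b cells, of which the rise of 0.73 was called (adjusted p = 0.00746, limma fit of every probe), and with the mean of the 3 probes the call was lost.

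All 4 enzymes of de novo pyrimidine synthesis were lower without IL-7 in miR-125b cells, and 3 of 4 in control cells. Among all genes 32.1% were lower in miR-125b and 34.1% in control cells. Cad joins the first 3 steps in 1 protein. The level of Cad was -2.88 and -2.88 in control cells with IL-7, -2.52 and -2.28 in miR-125b cells with IL-7, -3.54 and -3.13 in control cells without IL-7, and -3.41 and -3.26 in miR-125b cells without IL-7. The fall was 0.93 (SE 0.16, adjusted p = 0.00565) in miR-125b cells, and the change in control cells, -0.46 (SE 0.16, adjusted p = 0.0524), was not called. Its average change with miR-125b was 0.24 (SE 0.11, adjusted p = 0.198), the miR-125b arrays being higher with IL-7 and the groups overlapping without it. Dhodh is the mitochondrial step of the pathway. With IL-7, Dhodh was at 2.49 and 2.42 in control and 2.50 and 2.63 in miR-125b cells, and without IL-7 at 1.68 and 1.73 in control and 2.10 and 2.06 in miR-125b cells. The groups did not overlap, the average change was 0.24 (SE 0.06, adjusted p = 0.0388), kept in 7 of 17 settings, and the falls were 0.76 (SE 0.08, adjusted p = 0.00166) and 0.48 (SE 0.08, adjusted p = 0.00509). Its other probe had an average change of 0.08. Umps, which completes UMP, fell by 0.75 (SE 0.14, adjusted p = 0.00708) and 0.76 (SE 0.14, adjusted p = 0.00744), and Ctps, which makes CTP, by 0.81 (SE 0.11, adjusted p = 0.00304) and 0.64 (SE 0.11, adjusted p = 0.00663). With miR-125b their average changes were 0.20 and 0.19, not called. A second, dimmer Umps probe was called higher, at 0.42 (adjusted p = 0.0358, limma fit of every probe).

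The enzymes that supply deoxynucleotides differed among themselves on withdrawal, with 4 of 8 lower, Rrm2b higher and 3 not called in each cell type. That is 62.5% called, beside 54.3% and 52.5% of all genes. Rrm1 and Rrm2 are the large and small subunits of the ribonucleotide reductase of S phase. In control cells Rrm1 read 6.50 and 6.36 with IL-7 and 5.83 and 5.93 without, and in miR-125b cells 6.28 and 6.33 with IL-7 and 5.75 and 5.90 without. All arrays with IL-7 lay above those without. Rrm1 fell by 0.55 (SE 0.09, adjusted p = 0.00495) and 0.48 (SE 0.09, adjusted p = 0.00825), and these calls were lost with quantile normalization and in the deposited table. Rrm2 levels were 7.85 and 7.74 (control) and 7.53 and 7.51 (miR-125b) with IL-7, against 7.59 and 7.60 (control) and 7.26 and 7.38 (miR-125b) without it. The control arrays were above the miR-125b arrays in each condition, with an average change of -0.28 (SE 0.06, adjusted p = 0.0277), kept in 6 of 17 settings. On withdrawal Rrm2 changed by -0.20 (SE 0.08, adjusted p = 0.0813) and -0.20 (SE 0.08, adjusted p = 0.0785).

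Rrm2b encodes the p53-inducible small subunit, which serves DNA repair and cells outside S phase. The level of Rrm2b was -1.12 and -1.41 in control cells with IL-7, -1.93 and -2.46 in miR-125b cells with IL-7, -0.32 and -0.30 in control cells without IL-7, and -1.18 and -1.15 in miR-125b cells without IL-7. It was highest in control cells without IL-7 and lowest in miR-125b cells with IL-7, and within each condition the miR-125b arrays lay below. The average change with miR-125b was -0.89 (SE 0.13, adjusted p = 0.0131), a 0.539-fold level, kept in 14 of 17 settings. This probe was called in neither condition alone. A second probe changed by -0.94 in the average and was called in each condition (adjusted p of 0.029 with IL-7 and 0.0109 without, limma fit of every probe). Withdrawal raised Rrm2b by 0.95 (SE 0.19, adjusted p = 0.00839) in control and 1.03 (SE 0.19, adjusted p = 0.00718) in miR-125b cells. On the second probe the rises were smaller, 0.63 in control and 0.36 in miR-125b cells. Among the 35 enzymes Rrm2b was 1 of 2 called higher on withdrawal in the main fit.

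Nme1, a nucleoside diphosphate kinase, adds the last phosphate. With IL-7, Nme1 was at 5.91 and 5.65 in control and 5.80 and 6.13 in miR-125b cells, and without IL-7 at 4.05 and 4.32 in control and 4.56 and 4.68 in miR-125b cells. The arrays with IL-7 exceeded those without by more than the spread between replicates, and its falls of 1.59 (SE 0.17, adjusted p = 0.00166) and 1.34 (SE 0.17, adjusted p = 0.00261) were among the largest of the 35. Its other 2 probes fell by less, 1.16 and 0.30 in control cells. The largest fall of the 35 in both cell types was that of Dctd, dCMP deaminase, by 1.79 (SE 0.30, adjusted p = 0.00491) and 1.70 (SE 0.30, adjusted p = 0.00641). Its probe was dim, with a mean signal of 62.8, so the size of this fall is uncertain. Over the alternative settings the change of Dctd ranged from -2.15 to -1.14 in control and from -1.95 to -1.22 in miR-125b cells. Tk1, the S-phase thymidine kinase, fell by 0.33 (SE 0.09, adjusted p = 0.0246) and 0.38 (SE 0.09, adjusted p = 0.0162), with 10 of 18 and 11 of 18 settings keeping the call. Dck, deoxycytidine kinase, changed by -0.23 (SE 0.17, adjusted p = 0.287) and -0.00 (SE 0.17, adjusted p = 0.992), and Dut, which destroys dUTP, by -0.12 (SE 0.15, adjusted p = 0.519) and -0.18 (SE 0.15, adjusted p = 0.329). With miR-125b, Dctd had an average change of 0.78 (SE 0.21, adjusted p = 0.0595) and Dck one of -0.43 (SE 0.12, adjusted p = 0.063), neither called. A second Dctd probe was called higher in the average (adjusted p = 0.0168, limma fit of every probe), but it was well above background on 0 of 2 control arrays without IL-7, so no fold is given for it. With IL-7, where all 4 arrays measured it, it changed by 1.15 (adjusted p = 0.19).

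Of 9 regulators of these pathways, Myc changed most. In control cells Myc read 3.42 and 2.87 with IL-7 and 0.96 and 1.10 without, and in miR-125b cells 3.67 and 4.21 with IL-7 and 2.35 and 2.63 without. It was higher in miR-125b than in control cells in each condition, with an average change of 1.13 (SE 0.18, adjusted p = 0.0146), and it fell on withdrawal by 2.11 (SE 0.25, adjusted p = 0.00198) and 1.45 (SE 0.25, adjusted p = 0.00605). E2f1, an activator of S-phase genes, had an average change of 0.23 (SE 0.05, adjusted p = 0.0349) and falls of 0.64 (SE 0.07, adjusted p = 0.00183) and 0.35 (SE 0.07, adjusted p = 0.0102), and E2f2 was lower in miR-125b cells, at -0.67 (SE 0.05, adjusted p = 0.00319). Of the 19 proliferation genes measured, 1, the cyclin Ccne1, was called in the average, at -0.90 (SE 0.07, adjusted p = 0.00301). That is 5.26% called, beside 15.8% of all genes.

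Promoters were searched for short motifs known for MYC, E2F and ATF4, in RefSeq windows of GRCm38.p6 from 250 bases before to 50 after a start site, on both strands. Windows were found for 31 of the 35 enzymes, not for Dhodh, Ggh, Pfas and Rrm2b. The E-box CACGTG, which MYC binds, lay in the windows of 5 of the 31 (16.1%), Atic, Impdh2, Nme1, Paics and Tyms, and in 8.09% of 27025 genes. The E2F letters GCGGGAA lay in 5 (16.1%), Mthfd1, Ppat, Prps1, Prps2 and Rrm1, against 5.29% of genes, and the ATF4 letters TGATGNAA in 1, Prps1 (3.23%), against 4.51%. These shares are descriptions of few genes. Windows of Nme1, Paics and Tyms are shown with the E-box in capitals, since all 3 hold it while the first 2 fell on withdrawal and Tyms was not called.
Nme1 (chr11:93967976-93968275, minus strand): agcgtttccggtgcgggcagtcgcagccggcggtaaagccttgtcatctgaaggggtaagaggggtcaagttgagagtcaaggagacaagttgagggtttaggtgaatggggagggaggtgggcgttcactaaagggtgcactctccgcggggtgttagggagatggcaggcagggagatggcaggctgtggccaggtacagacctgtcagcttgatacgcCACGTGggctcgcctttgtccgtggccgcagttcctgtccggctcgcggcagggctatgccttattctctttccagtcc
Paics (chr5:76951052-76951351, plus strand): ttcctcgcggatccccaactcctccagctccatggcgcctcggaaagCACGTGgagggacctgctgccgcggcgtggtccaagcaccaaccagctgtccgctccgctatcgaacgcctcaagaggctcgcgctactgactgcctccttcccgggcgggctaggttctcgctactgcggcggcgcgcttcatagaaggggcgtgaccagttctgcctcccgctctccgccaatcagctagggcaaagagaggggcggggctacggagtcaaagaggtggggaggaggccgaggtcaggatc
Tyms (chr5:30073576-30073875, minus strand): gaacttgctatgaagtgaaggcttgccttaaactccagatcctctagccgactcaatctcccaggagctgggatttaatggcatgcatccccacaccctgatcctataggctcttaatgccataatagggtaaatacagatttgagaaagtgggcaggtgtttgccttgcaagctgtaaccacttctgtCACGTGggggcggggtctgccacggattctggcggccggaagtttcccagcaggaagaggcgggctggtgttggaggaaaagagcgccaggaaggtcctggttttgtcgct
For Nme1 this is 1 of 2 annotated windows, which overlap, and the other holds the E-box too. The annotated starts of Paics (plus strand) and Ppat (minus strand) lie 276 bases apart on chromosome 5, and each gene is read across the start of the other.

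The neighbouring pathways, taken as whole lists, were measured beside the 35. Of 14 folate carriers and further one-carbon enzymes, 4 were higher with miR-125b in the average and 0 lower, that is 28.6% called beside 15.8% of all genes. They were the folate transporters Slc19a1, at 0.71 (SE 0.15, adjusted p = 0.029), and Slc46a1, at 0.41 (SE 0.06, adjusted p = 0.0122), the mitochondrial enzyme Mthfd2l, at 0.55 (SE 0.08, adjusted p = 0.0137), and Gcsh of the glycine cleavage system, at 0.71 (SE 0.14, adjusted p = 0.0283). Slc19a1 levels were 2.99 and 2.65 (control) and 3.18 and 3.65 (miR-125b) with IL-7, against 1.39 and 1.59 (control) and 2.19 and 2.45 (miR-125b) without it. Each miR-125b array lay above each control array of its condition. On withdrawal 6 of the 14 were lower and 1, Gldc, was higher in each cell type, 50% called, which is near the 54.3% and 52.5% of all genes. Slc19a1 fell by 1.33 (SE 0.21, adjusted p = 0.00385) and 1.10 (SE 0.21, adjusted p = 0.00769).

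Of 11 genes of serine and glycine uptake and use, 5 were higher with miR-125b in the average and 0 lower, the transporters Slc1a5 (0.24), Slc6a9 (0.59) and Slc7a5 (0.42) and the enzymes Cth (0.53) and Got1 (0.33). On withdrawal 5 of the 11 were lower in control cells and 2 in miR-125b cells, with 1, Slc1a4, higher in each, that is 54.5% and 27.3% called beside 54.3% and 52.5% of all genes. Of 15 purine salvage genes, 4 were higher and 0 lower, Gmpr, Adk (0.52), Ampd2 (0.48) and Gmpr2 (0.26), with adjusted p of 0.00966 to 0.038. No fold is given for Gmpr, which passed the filter through the miR-125b groups and was well above background on 1 of 2 control arrays with IL-7 and 0 of 2 without. Of 16 pyrimidine salvage genes, 4 were higher and 0 lower, Nme4 (0.84), Tymp (0.38), Nme2 (0.32) and Ctps2 (0.27). In these 3 lists the counts stand beside the 7.27% of all genes called higher. On withdrawal 12 of the 15 purine salvage genes were lower in control cells and 11 in miR-125b cells, where 34.1% and 32.1% of all genes were, with Aprt at -1.08 and -1.04 and Pnp at -0.89 and -1.14. Of the pyrimidine salvage genes 10 and 11 were lower and 1, Ctps2, was higher. Of 7 pentose phosphate pathway genes, whose product feeds phosphoribosyl pyrophosphate, 0 were called with miR-125b in the average by limma (15.8% of all genes). An unadjusted p under 0.05 was found for 2, Pgls and Rpe, where 33% of all genes had one. On withdrawal 4 of the 7 were lower in each cell type, Tkt by 1.00 and 1.08, and 1, Rpia, was higher in control cells, at 0.37, where 34.1% and 32.1% of all genes were lower and 20.2% higher in control cells.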

How the data were processed

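Gene expression was measured on 8 single-colour (Cy3) Agilent 60-base arrays, 2 per group, with 100 ng of RNA each; groups and replicate numbers come from the sample labels. Per the file headers, each scanner file gives a linear intensity per spot, detrended and background-subtracted but not normalized between arrays, beside quality marks of another kind (other: 0 or 1 per spot). Agilent Feature Extraction was version 10.7.3.1 with IL-7 and 10.7.1.1 without, per the file headers, and 10.7.1.1 per the submitters' processing notes. The authors also deposited linear intensity values with the same distribution on each array (median 21.7), as quantile normalization gives, which served as an alternative.

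Control spots (3671) were left out, spots of a probe averaged, and 58 non-uniform probes dropped. The log2 signal minus the log2 75th percentile of the array was fitted with limma 3.58.1 under R 4.3.3, with a mean per group over 8 arrays. A probe was used if both arrays of some group measured it well above background (29811 were), and the brightest probe represented a gene (20677 genes). It was the brightest of all probes for each of the 35 enzymes. Calls are genes with p under 0.05 after Benjamini-Hochberg adjustment over all genes tested, two-sided. The code was tested on simulated data. The number of arrays limits the precision. Alternatives changed the background correction, scaling, filter, variance model, arrays fitted, probe per gene and replicate block, and left out each array. Same-numbered replicates deviated from their group means with correlations of -0.10 to 0.11, so the numbers were not taken as pairs. 0 columns belonged to other series.

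The 35 enzymes, the other lists and the tests were chosen with earlier results of these data known. The rule gave values on each array for enzymes called in the average of miR-125b or in the difference, and for Shmt2, Mthfd2, Phgdh, Psat1, Tyms, Cad, Impdh2, Rrm1, Rrm2, Rrm2b and Nme1, and named from other lists the genes called there or the 3 largest changes each way on withdrawal. Myc and Slc19a1 are also given with further values, and the seed match and the promoter windows were chosen after values were seen. Probe positions are in mm9, as in the files.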

Additional observations from a re-analysis of the deposited data

How the results depend on the processing

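Calls are counted over the 35 enzymes and over all genes. Of the changes of enzymes called in the main fit, 0 reversed their sign under any alternative. Changes that were not called, and those of other genes, were not checked for this. Of the values of called enzymes under alternatives, 1106 stayed on the same side of the threshold and 176 lost their call. These counts pool all comparisons and rest mostly on withdrawal, with 27 enzymes called in each cell type. For miR-125b 1, 5 and 12 were called with IL-7, without it and in the average, so the pooled counts do not describe those calls. For miR-125b with IL-7 (1 enzyme, 537 genes), normexp background correction called 5 enzymes, quantile normalization, the authors' deposited values and the mean of all probes 2 each, the filter on all 8 arrays 4 (911 genes) and a mean-variance trend 7 (1486 genes). Scaling to the array median called 0 (220 genes), and no filter and the fit of only the 4 arrays compared called 0 enzymes and 0 genes each. Without IL-7 (5 enzymes, 1328 genes), normexp called 11 (2649 genes), quantile normalization 12 (2075), the authors' deposited values 12 (2062), the filter on all arrays 10, the trend 14 (2602), the array median 832 genes, no filter 2 (622) and the 4 arrays compared 3 (491). In the average (12 enzymes, 3275 genes), normexp called 20, the trend 19, and no filter 6 (1419 genes). In the difference, normexp called 5 genes, and 1 each was called with the array median, quantile normalization, the deposited values and the trend, with 0 of the enzymes.

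With the replicate number as a block, 0 enzymes and 4 genes were called with IL-7, 2 and 452 without IL-7, 7 and 2171 in the average, 28 enzymes (control cells) and 26 (miR-125b cells) on withdrawal, and 0 genes in the difference. Leaving out 1 array at a time called 0 enzymes and 0 to 149 genes with IL-7, 0 to 5 and 8 to 1134 without, 2 to 10 and 981 to 2616 in the average, 23 to 27 and 7259 to 11105 on withdrawal in control cells (fewest genes without control replicate 1, no IL-7), 20 to 26 and 7191 to 10715 in miR-125b cells (fewest without miR-125b replicate 1, no IL-7), and 0 and 0 to 3 in the difference. The lone array of a group is then assumed to vary like the other groups. The average and the difference need all groups, so the fit of only the 4 arrays compared was not run for them. The cause of these shifts was not tested. Among the representing probes of the 35 enzymes, only that of Ggh was not well above background on all 8 arrays. Those of Cad and Dctd were dim as well, with mean signals of 62.1 and 62.8, so the sizes of their changes are uncertain.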

Other observations

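Among genes of dNTP turnover, Dctpp1, which hydrolyses modified dCTP, was higher with miR-125b in the average, at 0.57 (SE 0.11, adjusted p = 0.0278), and was 1 of 4 measured. It fell on withdrawal by 1.17 in both control and miR-125b cells. Among the pyrimidine salvage genes, Cmpk2, a mitochondrial nucleotide kinase, was called lower on withdrawal in both cell types. With IL-7 all 4 arrays measured it, but without IL-7 it stood above background on 0 of 2 control and 1 of 2 miR-125b arrays, so no fold is given. Gldc, the decarboxylase of the glycine cleavage system, rose by 1.13 in control and 1.16 in miR-125b cells, while Gcsh of the same system fell by 1.47 and 1.04. Cbs, which condenses serine with homocysteine, was called lower in both cell types and is given without a fold for the same reason, with the same numbers of arrays above background. The serine transporter Slc1a4 rose by 0.83 and 0.70. All of these were called with limma (adjusted p under 0.05).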
